A study of Homo sapiens with 16 samples.

Results

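The response to dihydrotestosterone (DHT) that was left under enzalutamide (ENZ) or apalutamide (APA) was measured in 8 of 16 bulk RNA-seq libraries of LNCaP, an established human prostate cancer cell line that needs androgen for full growth. The 8 libraries were chosen by their labels alone and fall into 4 groups of 2 replicates. ENZ.VEH and APA.VEH received 10 µM of the antagonist and the ethanol solvent of DHT. ENZ.DHT and APA.DHT received the same antagonist with 10 nM DHT. Before the 48 h of treatment, all 16 libraries shared 72 h of growth in 5% fetal bovine serum and 48 h in 5% charcoal-stripped serum, which holds little steroid. The other 8 libraries were VEH (both solvents, no drug), DHT (DHT without antagonist), BIC.VEH and BIC.DHT (10 µM bicalutamide with the solvent or with DHT), again with 2 replicates each. LNCaP is 1 line grown in culture, so the replicates are cultures of the same cells. The p-values below rest on the spread between samples labelled as biological replicates. In the pooled test of ENZ and APA libraries they rest also on how far the DHT response differed between these antagonists.

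The androgen receptor is a nuclear receptor that binds DHT, enters the nucleus and switches genes on or off from androgen response elements in their enhancers and promoters. Enzalutamide and apalutamide compete with DHT for its ligand pocket and hinder its entry into the nucleus and its binding to DNA. Both are built on a thiohydantoin ring and are close analogs: apalutamide carries a spiro-cyclobutane where enzalutamide has a pair of methyl groups, and a pyridine ring where enzalutamide has a benzene ring. Bicalutamide is an older antagonist of another scaffold. In luminal prostate cells the receptor drives the kallikreins, among them KLK3, which encodes prostate-specific antigen, and also lipid synthesis, secretion and the cell cycle.

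The deposited values are TPM per gene, in which reads are divided by transcript length and scaled to a fixed library total, and every log2 fold change below is a difference on the log2(TPM + 1) scale, so changes of genes at low TPM come out too small. In total, 16636 genes reached a TPM of 1 in at least 2 of the 16 libraries. A gene was called when its limma adjusted p (Benjamini-Hochberg over all 16636 genes) was below 0.05. Each ENZ or APA library with DHT was also set against the vehicle library with the same antagonist and replicate number, which gave 4 pairs. TPM keeps no read depth, and the labels give about 40 M read pairs per library. In bulk RNA, fewer cells of a type and less RNA per cell cannot be told apart. All 14 luminal markers passed the filter, with a summed level of 3635 to 3958 TPM in the vehicle libraries and 3085 to 3739 TPM with DHT. Of 10 immune markers 1 passed, and CD3E, CD3D and MS4A1 were listed at 0 in all 8 libraries.

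ENZ.DHT replicate 1 and APA.DHT replicate 1 stood apart from the other libraries. Replicates of these groups differed more than 2-fold in 5.71% (ENZ.DHT) and 6.17% (APA.DHT) of genes, against 2.45% to 3.97% in the other 6 groups. The median difference between DHT and vehicle over all genes was -0.21 in the ENZ pair and -0.16 in the APA pair of replicate 1, and -0.02 and 0.02 in the pairs of replicate 2. This shift went with transcript length. Among the 4660 genes with the longest transcripts (median 6372 bases), the median difference was -0.44 (ENZ) and -0.38 (APA) in replicate 1, and -0.02 and 0.02 in replicate 2. Among the 4660 genes with the shortest transcripts (median 1623 bases), all 4 medians lay between -0.01 and 0.02. The other arms had smaller falls from the shortest to the longest transcripts. Without antagonist the medians went from -0.09 to -0.18 in replicate 1 and from 0.0015 to -0.10 in replicate 2. With BIC they went from -0.04 to -0.11 and from -0.01 to -0.08. A test of the difference between the DHT response of replicate 2 and that of replicate 1 called 4014 genes (24.1% of those tested, limma, Benjamini-Hochberg adjustment). It called 1279 of 13979 genes (9.15%) after the length trend was removed from each library. The same 2 libraries held 19.4% and 19.2% of their TPM in mitochondrial genes, against 16.1% to 17.7% in the other 6 ENZ or APA libraries. The share was higher still in DHT replicate 1 (22.3%) and BIC.DHT replicate 1 (20.6%), so a raised share was common to all replicate 1 libraries with DHT. The part of RNA or library quality in these differences was not tested. For log2 fold changes and list medians under ENZ or APA, values from replicate 2, which holds neither library, are therefore given where they differ in sign or by 1.5 times or more.

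**Figure D1:**
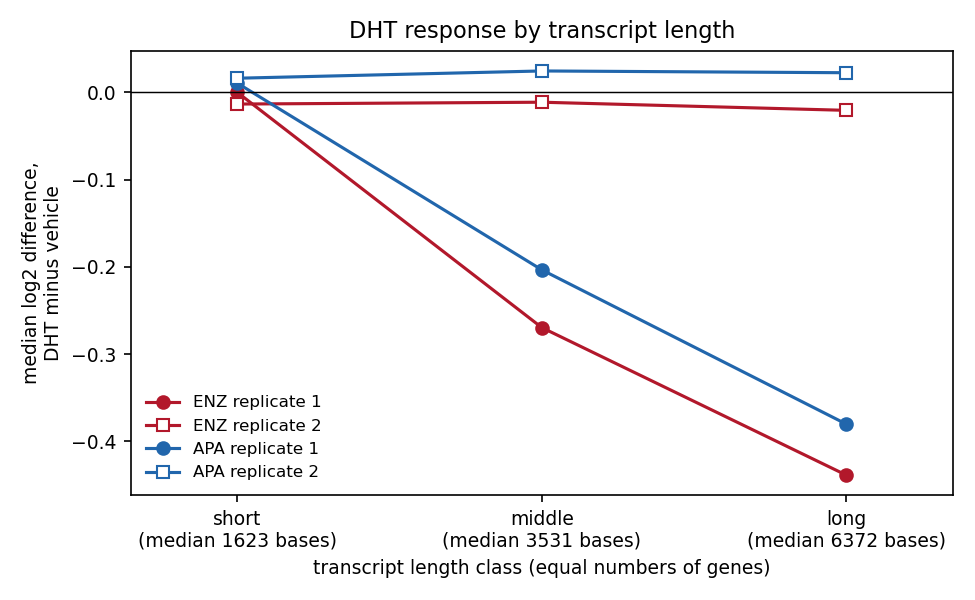
Median log2 difference between the DHT library and its vehicle library (y axis) over short, middle and long transcripts (x axis, equal numbers of the genes with a length in each class) for the 4 pairs. The replicate 1 pairs reach, at the long transcripts, -0.44 and -0.38, and the replicate 2 pairs stay between -0.02 and 0.02.

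With ENZ or APA in the medium, DHT gave few called differences. Only 1 of 16636 genes was called (0.00601%) in the test of the 4 DHT against the 4 vehicle libraries, with antagonist and replicate number as blocks, and 2825 genes had an unadjusted p below 0.05 (637 higher and 2188 lower). The called gene, RNA5SP392, is a pseudogene of the small 5S ribosomal RNA (chromosome 15, 40331537 to 40331648, GRCh38.p14) and lies within CCDC9B. It was listed at 0 in all 4 vehicle libraries. With DHT it stood at 25.1 and 18.7 TPM in ENZ.DHT and at 28.8 and 8.55 TPM in APA.DHT (log2 fold change 4.29, SE 0.28, limma adjusted p 0.016). It was also at 10.7 TPM in VEH replicate 2 and at 24.9 TPM in BIC.VEH replicate 2, neither of which held DHT. For 96.1% of genes the 95% interval of the log2 fold change lay within -1 to 1, and it reached a median of 0.27 to either side.

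Fitting all 16 libraries together called 6 genes (0.0361%) for the same contrast. RNA5SP392 was not among those called by this fit (SE 0.88, limma adjusted p 0.20). This fit has more libraries to estimate the spread. It also gives each group its own mean, so unequal DHT responses under ENZ and APA do not add to the spread. Its spread is drawn also from the VEH, DHT and BIC groups, whose replicates were closer. They differed more than 2-fold in 2.45% to 2.72% of genes, against 5.71% in ENZ.DHT and 6.17% in APA.DHT. The spread may therefore be too small for this contrast. KLK3, TRPM8, KCNN2, ARHGEF26 and AC008752.1 were higher with DHT, and RNU5E-1, a small nuclear RNA of the spliceosome, was lower. The last pair rest on 1 antagonist each: AC008752.1 stood at 2.7 and 5.42 TPM in ENZ.DHT and was listed at 0 in the other 14 libraries, and RNU5E-1 stood at 8.68 and 11.9 TPM in APA.VEH and was listed at 0 elsewhere. In replicate 2 alone no gene was called (limma), with 657 at an unadjusted p below 0.05. In replicate 1 alone, 4653 genes were called (28%), 4011 of them lower with DHT, in a fit with 1 residual degree of freedom.

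KLK3 and KLK2, neighbouring kallikrein genes, had the highest log2 fold changes under ENZ or APA of all listed androgen-induced genes. Their stretches of 250 bases before the start site in RefSeq (GRCh38.p14, plus strand) are shown because both genes were higher with DHT in every pair and the windows share a long run of letters. Capitals mark AGAACA, one arm of the androgen response element, which was searched for on both strands (as AGAACA or TGTTCT). KLK3 lies at chr19:50854665-50854914 and KLK2 at chr19:50873189-50873438.
KLK3: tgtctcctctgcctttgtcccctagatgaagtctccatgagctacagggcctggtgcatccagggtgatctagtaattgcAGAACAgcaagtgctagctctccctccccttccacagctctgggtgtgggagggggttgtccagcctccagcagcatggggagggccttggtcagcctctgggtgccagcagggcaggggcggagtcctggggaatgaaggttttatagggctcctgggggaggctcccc
KLK2: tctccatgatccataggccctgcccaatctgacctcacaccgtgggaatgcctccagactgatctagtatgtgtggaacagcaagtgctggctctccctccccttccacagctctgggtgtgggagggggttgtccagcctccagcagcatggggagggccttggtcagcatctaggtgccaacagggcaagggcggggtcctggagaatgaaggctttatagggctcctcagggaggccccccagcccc
The KLK3 window holds 1 such arm, from position -170 to -165 counted from the start site, and the KLK2 window holds none in this exact spelling. It reads ggaaca, with 1 letter changed, before the same gcaagtgct that follows the arm in KLK3. Looser spellings were not searched for, so the search cannot show that an element is absent. The arm occurs in 12.4% of 35116 RefSeq promoter windows of this length, and the full element spelled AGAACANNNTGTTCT in 1 of them. The longest run of letters that both windows share is 80 bases, from -154 to -75 in KLK3 and from -160 to -81 in KLK2. The genes are paralogs, their transcripts were not compared here, and the authors' estimation divides any reads that fit both.

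KLK3 (chromosome 19, 50854915 to 50860764) stood at 72.9 and 71.5 TPM in ENZ.VEH and at 296 and 115 TPM in ENZ.DHT. In APA.VEH it stood at 30.4 and 20.4 TPM, and in APA.DHT at 340 and 90.3 TPM. All 4 DHT libraries were above all 4 vehicle libraries, and the replicate 1 libraries with DHT were the highest under both drugs. The log2 fold change was 2.05 (SE 0.38, 95% interval 1.15 to 2.96). The fit of 8 libraries did not call it (limma adjusted p 0.29), and the fit of all 16 did (limma adjusted p 0.011). It was 1.38 in replicate 2 alone. Without antagonist, DHT raised KLK3 by 6.42 on the log2 scale, from 53.0 and 24.01 TPM in VEH to 4102 and 2422 TPM, and the response under ENZ or APA was smaller by a called difference of -4.37.

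KLK2 (chromosome 19, 50873439 to 50880567), which encodes a kallikrein that can activate the KLK3 product, stood at 9.09 and 11.6 TPM in ENZ.VEH and at 34.2 and 15.1 TPM in ENZ.DHT. In APA.VEH it stood at 2.50 and 2.86 TPM, and in APA.DHT at 34.6 and 9.53 TPM. DHT was above vehicle in all 4 pairs, but APA.DHT replicate 2 was below ENZ.VEH replicate 2, so the groups overlap. The log2 fold change of 1.74 (95% interval 0.76 to 2.71) missed the threshold (limma adjusted p 0.29), and it was 0.90 in replicate 2 alone, against 6.57 without antagonist. KLK4, another kallikrein of the same cluster, which was chosen for mention after its values were seen, had a log2 fold change of 1.19 under ENZ or APA (0.75 in replicate 2 alone) and of 3.88 without antagonist.

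TRPM8, a cold-sensing calcium channel of luminal prostate cells (chromosome 2, 233917373 to 234019522), was between 0.76 and 2.17 TPM in the vehicle libraries. With DHT it was at 5.52 and 5.73 TPM under ENZ and at 7.61 and 5.15 TPM under APA. The groups did not overlap, and 1.08% of all genes tested were higher without overlap. It differed between DHT and vehicle by 1.39 on the log2 scale (95% interval 0.97 to 1.81, limma adjusted p 0.29 with 8 libraries and 0.0052 with 16). It was 1.52 in replicate 2 alone, so it did not rest on the libraries that stood apart. Without APA.VEH replicate 2, the lowest vehicle library at 0.76 TPM, it was 1.21. Without antagonist it was 3.46.

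KCNN2, a calcium-activated potassium channel (chromosome 5, 114055978 to 114496496), stood at 18.4 and 22.9 TPM in ENZ.VEH and at 14.3 and 19.0 TPM in APA.VEH. With DHT it was at 30.6 and 32.1 TPM under ENZ and at 32.6 and 33 TPM under APA. The 4 DHT values lay close together and above every vehicle value. Its fold change on the log2 scale was 0.77 (95% interval 0.51 to 1.03, limma adjusted p 0.29 with 8 libraries and 0.022 with 16), 0.62 in replicate 2 alone and 1.97 without antagonist.

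AZGP1, a secreted zinc-binding glycoprotein of prostate fluid (chromosome 7, 99966730 to 99976031), stood between 33.3 and 38.4 TPM in the vehicle libraries. With DHT it stood at 74.9 and 51.8 TPM under ENZ and at 81.4 and 57.6 TPM under APA. The groups did not overlap, and replicate 1 was higher than replicate 2 under both drugs. On the log2 scale the difference was 0.85 (95% interval 0.55 to 1.15) and was not called with 8 or with 16 libraries (limma adjusted p 0.29 and 0.059). It was 0.60 in replicate 2 alone and 2.93 without antagonist.

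ARHGEF26, an exchange factor that activates small GTPases (chromosome 3, 154121003 to 154257825), had log2 fold changes of like size with and without antagonist. It stood between 27.8 and 38.7 TPM in the vehicle libraries. With DHT it stood at 54.1 and 48.3 TPM under ENZ and at 59.7 and 48.6 TPM under APA. The log2 fold change under ENZ or APA was 0.61 (95% interval 0.37 to 0.85, limma adjusted p 0.29 with 8 libraries and 0.0073 with 16), and it was 0.57 in replicate 2 alone. Without antagonist it was 0.73, from 65.1 and 51.0 TPM in VEH to 99.5 and 92.7 TPM, and the difference between these responses was -0.11 (95% interval -0.36 to 0.13, limma adjusted p 0.53). The annotated antisense gene ARHGEF26-AS1 overlaps it. The library kit marks strand, but whether the authors' estimation used it is not given in the sources used here.

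**Figure D2:**
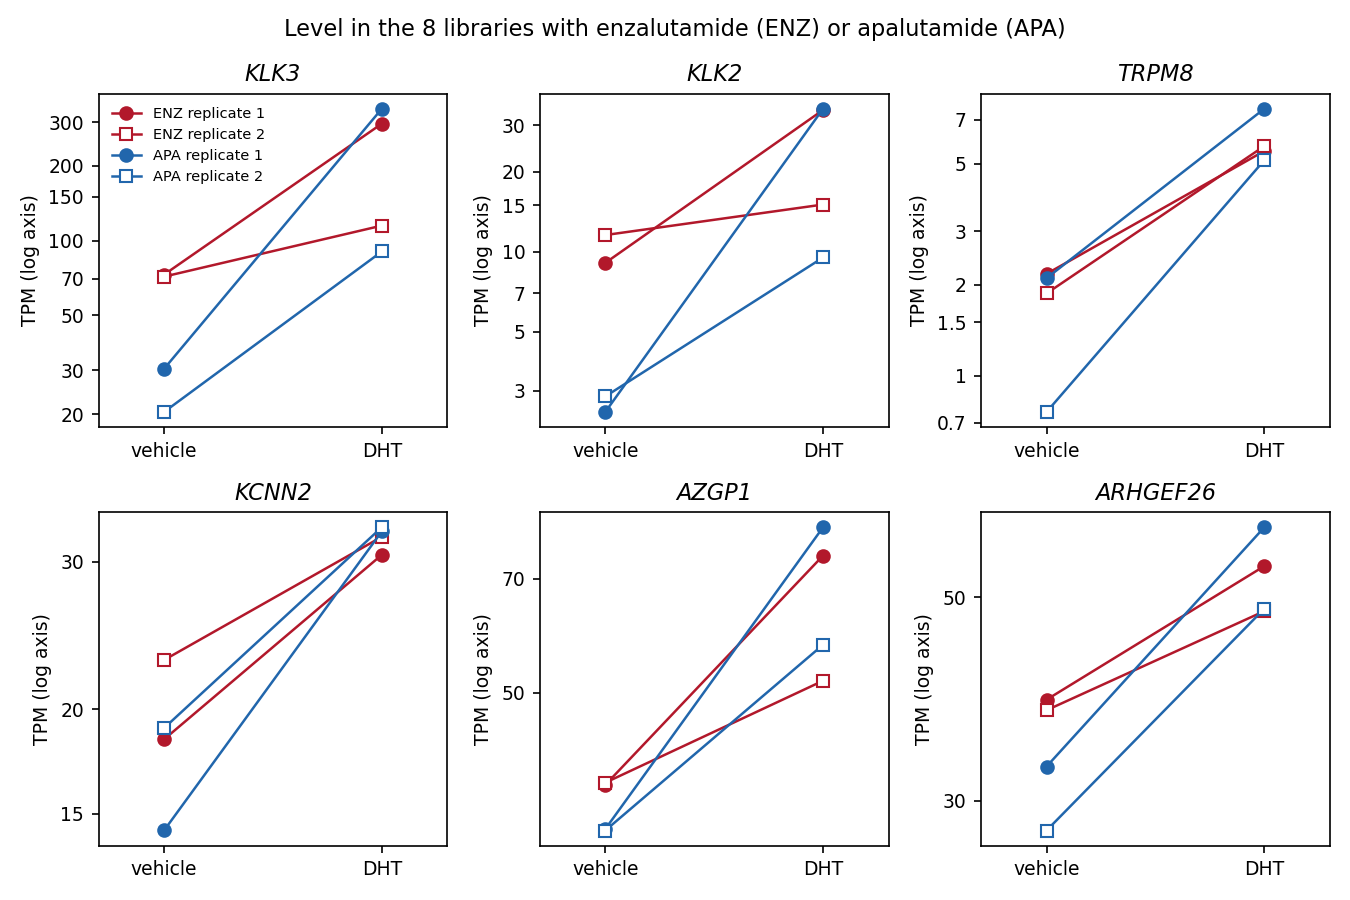
TPM (log y axis, 1 scale per gene) of 6 genes in the 4 vehicle and the 4 DHT libraries with ENZ or APA. Each line joins the vehicle and DHT libraries of 1 antagonist and 1 replicate number, and all 24 lines run upward, with KLK3 from 20.4 to 72.9 TPM in vehicle and from 90.3 to 340 TPM with DHT.

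Other well-known androgen targets had small log2 fold changes under ENZ or APA, and none of the following genes was called there. TMPRSS2, a membrane serine protease, had a log2 fold change of 0.26 (95% interval 0.01 to 0.51) under ENZ or APA and 0.14 in replicate 2 alone, against 3.15 without antagonist. FKBP5, a co-chaperone of steroid receptors, stood at 10.5 and 13.3 TPM in ENZ.VEH and at 8.56 and 13.6 TPM in ENZ.DHT. In APA.VEH it stood at 10.5 and 12.7 TPM, and in APA.DHT at 9.47 and 14.3 TPM. The groups overlap, and the log2 fold change was -0.05 (95% interval -0.27 to 0.17), against 2.68 without antagonist. It was positive in replicate 2 alone (0.10) and under median-ratio scaling (0.060). PGC, a pepsinogen, had a log2 fold change of 0.26 (95% interval -0.09 to 0.60) under ENZ or APA, -0.018 in replicate 2 alone and 4.95 without antagonist. In all 3 genes the difference from the response without antagonist was called, at -2.89, -2.73 and -4.69.

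Among the named genes called lower with DHT alone, none was called under ENZ or APA. Except for GSTA1, their log2 fold changes there ran from -0.12 to -0.69. GSTA1 was higher with DHT in all 4 pairs without overlap of the groups, by 0.47 (95% interval 0.14 to 0.80). In the replicate 2 pairs of ENZ and APA its differences were 0.11 and 0.16. Its response differed from that without antagonist by a called 1.47 (limma adjusted p 0.0035). PLA2G2A, a secreted phospholipase, stood at 478 and 257 TPM in ENZ.VEH and at 396 and 255 TPM in ENZ.DHT, and at 522 and 296 TPM in APA.VEH and 453 and 293 TPM in APA.DHT. Its values followed the replicate number more than DHT. Its log2 fold change was -0.12 (95% interval -0.28 to 0.03) and -0.012 in replicate 2 alone, against -4.37 without antagonist. IFI27L2, of an interferon-inducible family, had -0.25 (95% interval -0.51 to 0.01) and -0.38 in replicate 2 alone, against -3.54. UGT2B17 and UGT2B15 conjugate DHT and its metabolites to glucuronic acid. Their log2 fold changes were -0.12 (95% interval -0.45 to 0.21) and -0.51 (95% interval -1.0 to -0.01) under ENZ or APA, against -3.26 and -2.62 without antagonist. In replicate 2 alone they were 0.081 and -0.25. UGT2B15 was lower with DHT in all 4 pairs. Reads shared between these closely related genes leave both uncertain.

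Of the genes with a mean of at least 5 TPM in the DHT or the vehicle libraries, C16orf89 had the lowest p among those that were lower with DHT, and it was not called (limma adjusted p 0.29). It stood between 7.63 and 12.6 TPM in the vehicle libraries. With DHT it stood at 4.73 and 7.12 TPM under ENZ and at 4.65 and 6.52 TPM under APA. The groups did not overlap, and 3.37% of all genes tested were lower without overlap. Its log2 fold change was -0.69 (95% interval -0.90 to -0.48), -0.71 in replicate 2 alone and -2.01 without antagonist. SLC4A11, a membrane transporter, had -0.57 (95% interval -0.79 to -0.36) against -1.30 without antagonist.

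**Figure D3:**
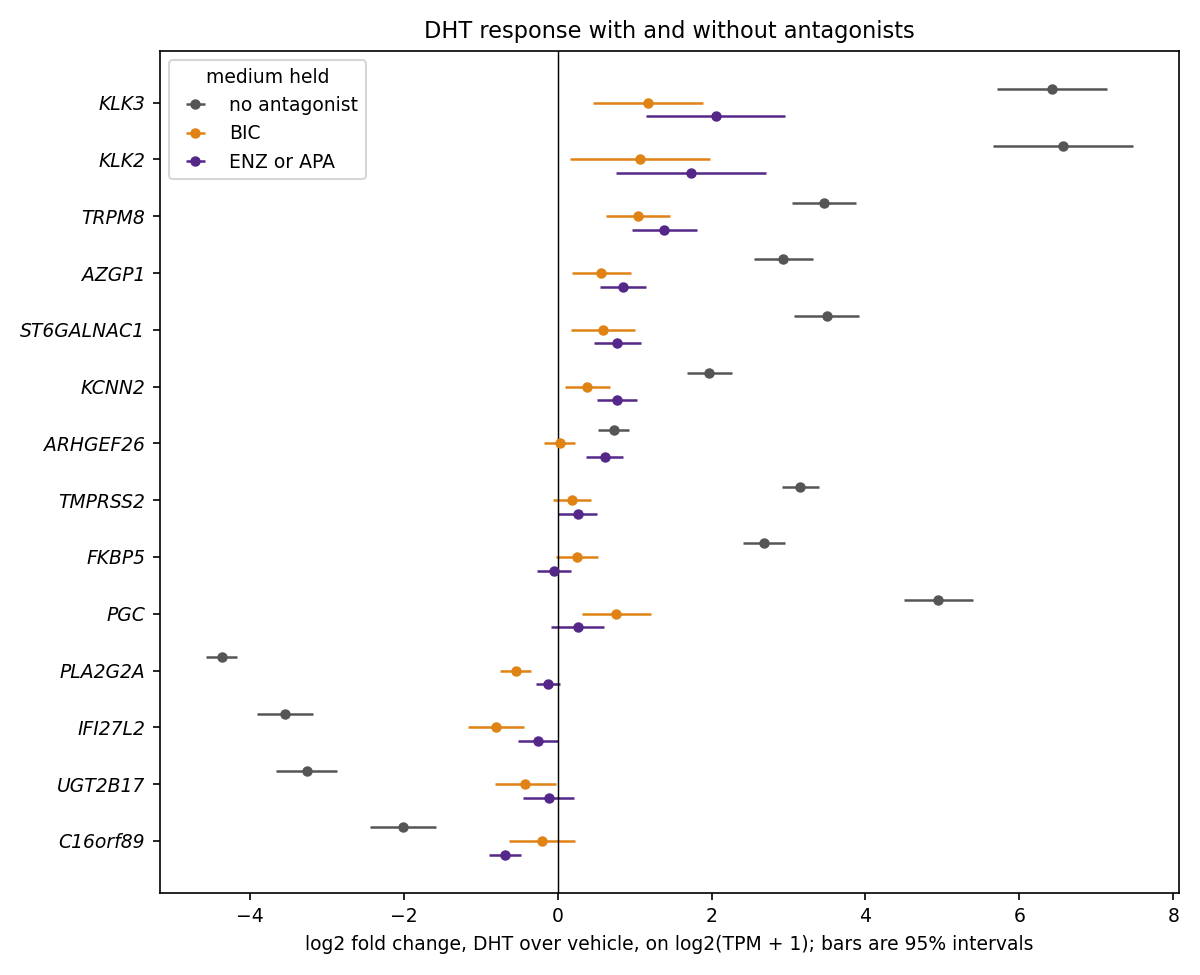
Log2 fold change of DHT over vehicle (x axis, points) with 95% intervals (bars) for 14 genes without antagonist, with BIC and with ENZ or APA. Without antagonist the points run from 6.57 (KLK2) to -4.37 (PLA2G2A), and with ENZ or APA all 14 lie between 2.05 (KLK3) and -0.69 (C16orf89).

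The size of the residual response was tested against the response without antagonist, which shares no library with it. This contrast called 2599 of 16636 genes (15.6%), 1251 with a more positive response under ENZ or APA (7.52%) and 1348 with a more negative one (8.1%), by limma with Benjamini-Hochberg adjustment. The count depends on the fit: it was 514 without the replicate block, 1631 with only the compared arms, and 1152 without VEH replicate 2, and the shares below are those of the fit with the block. Without antagonist, 1762 genes were called higher with DHT (10.6%) and 2797 lower (16.8%), together 27.4% of those tested. Of the 1762, the response was called more negative under ENZ or APA in 1223 (69.4%). Of the 2797, it was called more positive in 1187 (42.4%). Either count takes in responses that shrank and responses that changed sign. The choice of these genes used the no-antagonist libraries that also enter the difference, so the shares describe the genes and test nothing.

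The direction of small differences was followed over the 4 pairs, which hold no VEH or DHT library, although all 16 libraries set the spread in the fit that chose the genes. Over all genes, 6.47% were higher with DHT in all 4 pairs and 14.9% were lower in all 4. Among the 1762 genes called higher without antagonist, 18.9% were higher in all 4 pairs and 6.02% lower, with a median log2 fold change of 0.01 against -0.09 for all genes. In the replicate 2 pairs of ENZ and APA this median was 0.03 and 0.08. Among the 2797 called lower, 3.11% were higher in all 4 pairs and 29.2% lower, with a median of -0.15, and of -0.06 and -0.02 in the replicate 2 pairs. After removal of the length trend, 34.4% of the first set were higher in all 4 pairs against 12.9% of all genes with a length, and 19.7% of the second set were lower against 10.2%. The medians were then 0.11 and -0.04.

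The 53 listed androgen-induced genes gave 52 that passed the filter. Without antagonist 43 were called higher, in the fit of all 16 libraries. Under ENZ or APA that fit called 3 of them (KLK3, TRPM8 and KCNN2), and the fit of 8 libraries called none. The fit of 8 has fewer libraries to estimate the spread, and unequal DHT responses under ENZ and APA add to its spread. The fit of 16 draws its spread also from groups with closer replicates, so it may be too small here. Under ENZ or APA 17 of the 52 were higher with DHT in all 4 pairs (32.7%, against 6.47% of all genes) and 3 were lower. These 17 included KLK2, KLK3, KLK4, TRPM8, KCNN2, AZGP1 and TMPRSS2, and also GNMT, which methylates glycine (log2 fold change 0.49), and EAF2, a transcription elongation factor that androgens induce (0.82). In replicate 2 alone GNMT had 0.17 and EAF2 0.47. They were chosen for mention after their values were seen. The median over the list was -0.01, with -0.15 and -0.12 in the replicate 1 pairs of ENZ and APA and 0.07 and 0.14 in the replicate 2 pairs. It was 0.14 after removal of the length trend (38 above and 13 below 0), 0.08 under median-ratio scaling (33 and 19), and 1.58 without antagonist.

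Of 29 listed androgen-repressed genes, 26 passed the filter and none was called under ENZ or APA with 8 or with 16 libraries. Without antagonist 15 of them were called lower and 7 higher. Under ENZ or APA 10 were lower with DHT in all 4 pairs (38.5%, against 14.9% of all genes) and 2 were higher. The list's median was -0.21, and it was -0.02 and -0.03 in the ENZ and APA pairs of replicate 2. OPRK1, an opioid receptor, had -0.37, against -2.23 without antagonist, and -0.14 in replicate 2 alone. SI, the intestinal sucrase-isomaltase, had -0.58, against -2.17, and -0.15 in replicate 2 alone. Both values under ENZ or APA thus rest largely on the replicate 1 pairs. GRIN3A, a glutamate receptor subunit, had 0.70 instead (0.38 in replicate 2 alone), and 1.36 without antagonist.

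Of 54 G2/M phase genes, all passed the filter and none was called under ENZ or APA with 8 or with 16 libraries, whereas, with 16, 48 were called higher without antagonist. Under ENZ or APA 26 were higher with DHT in all 4 pairs (48.1%, against 6.47% of all genes) and 0 were lower in all 4. The median was 0.28 and 0.14 in the ENZ pairs of replicates 1 and 2 and 0.29 and 0.13 in the APA pairs, so it was above 0 in every pair. It was 0.22 over all 4, 0.46 under BIC and 1.17 without antagonist. HMMR, a spindle protein, had a log2 fold change of 0.57 (95% interval 0.19 to 0.96) and NEK2, a centrosome kinase, of 0.44 (95% interval 0.14 to 0.75), against 1.74 and 1.303 without antagonist. In replicate 2 alone they were 0.31 and 0.22. MKI67, which marks dividing cells, stood at 0.83 and 7.90 TPM in ENZ.VEH and at 1.11 and 9.99 TPM in ENZ.DHT. In APA.VEH it stood at 1.42 and 8.05 TPM and in APA.DHT at 2.19 and 8.46 TPM. The replicates differed far more than DHT and vehicle did, with replicate 1 low in all 4 groups. HMMR and NEK2 were likewise low in replicate 1, at 0.82 and 0.40 TPM in ENZ.VEH, against 13.1 and 7.24 TPM in replicate 2.

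S phase genes had a lower median. Of 43 listed, all were tested and none was called. In all 4 pairs 12 were higher (27.9%, against 6.47% of all genes) and 0 lower (14.9% of all genes). The median was 0.05, with 0.10 and 0.07 in the ENZ and APA pairs of replicate 2, against 1.01 without antagonist. RRM2, a subunit of ribonucleotide reductase, had 0.54 (95% interval 0.26 to 0.82, and 0.35 in replicate 2 alone), CDC45, a part of the replicative helicase, 0.53 (95% interval 0.20 to 0.86) and CDC6, which licenses replication origins, 0.34 (95% interval 0.06 to 0.62). MCM2, another helicase subunit, had -0.06 (95% interval -0.29 to 0.18) as deposited and 0.12 in replicate 2 alone, against 1.08 without antagonist. RRM2, CDC45 and CDC6 were also low in replicate 1, at 2.73, 0.45 and 1.66 TPM in ENZ.VEH. In ENZ.VEH replicate 2 they stood at 26.65, 6.41 and 11.65 TPM.

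Of the metabolic lists, sterol synthesis and uptake held 26 tested genes, of which 21 were called higher without antagonist and none under ENZ or APA, with 8 or with 16 libraries. Their median was -0.11, with -0.35 and -0.23 in the replicate 1 pairs and 0.03 and 0.09 in the replicate 2 pairs. EBP and FDPS, enzymes of cholesterol and farnesyl synthesis, were higher with DHT in all 4 pairs without overlap of the groups, by 0.21 (95% interval 0.06 to 0.35) and 0.18 (95% interval 0.04 to 0.32), against 1.40 and 0.99 without antagonist. HMGCS1, which makes the precursor of mevalonate, had -0.24 as deposited and 0.09 in replicate 2 alone, against 1.51. Fatty acid synthesis had a median of -0.12 over 26 genes, with -0.33 and -0.23 in the replicate 1 pairs and 0.0018 and 0.05 in the replicate 2 pairs. ELOVL5, which elongates fatty acids, had 0.17 (95% interval 0.03 to 0.32), against 2.61 without antagonist.

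Some lists were set apart by replicate 1 alone. The 78 ribosomal protein genes, whose transcripts are short, had medians of 0.39 and 0.24 in the replicate 1 pairs and 0.04 and -0.03 in the replicate 2 pairs, and 8 of them (10.3%) were higher in all 4 pairs, against 6.47% of all genes. After removal of the length trend 2.56% of them were, against 12.9% of all genes. The 49 genes of ER to Golgi transport and glycosylation had medians of -0.42 and -0.37 in replicate 1 and of 0.01 and -0.0005 in replicate 2. The immediate early and stress kinase genes were on the low side in every pair. Of 17 tested, 7 were lower with DHT in all 4 pairs (41.2%, against 14.9%) and none was called. The median was -0.22, with -0.22 and -0.04 in the ENZ and APA pairs of replicate 2. Under BIC it was -0.15, and without antagonist -0.12. NR4A1, an early nuclear receptor gene, stood at 7.93 and 8.20 TPM in ENZ.VEH and 5.50 and 5.89 TPM in ENZ.DHT, and at 6.11 and 6.81 TPM in APA.VEH and 4.74 and 5.04 TPM in APA.DHT. Its groups did not overlap (log2 fold change -0.39, 95% interval -0.58 to -0.20, limma adjusted p 0.29). JUN, a subunit of the AP-1 factor, had -0.30 (95% interval -0.48 to -0.12). Without antagonist JUN had -0.85 and NR4A1 0.17.

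**Figure D4:**
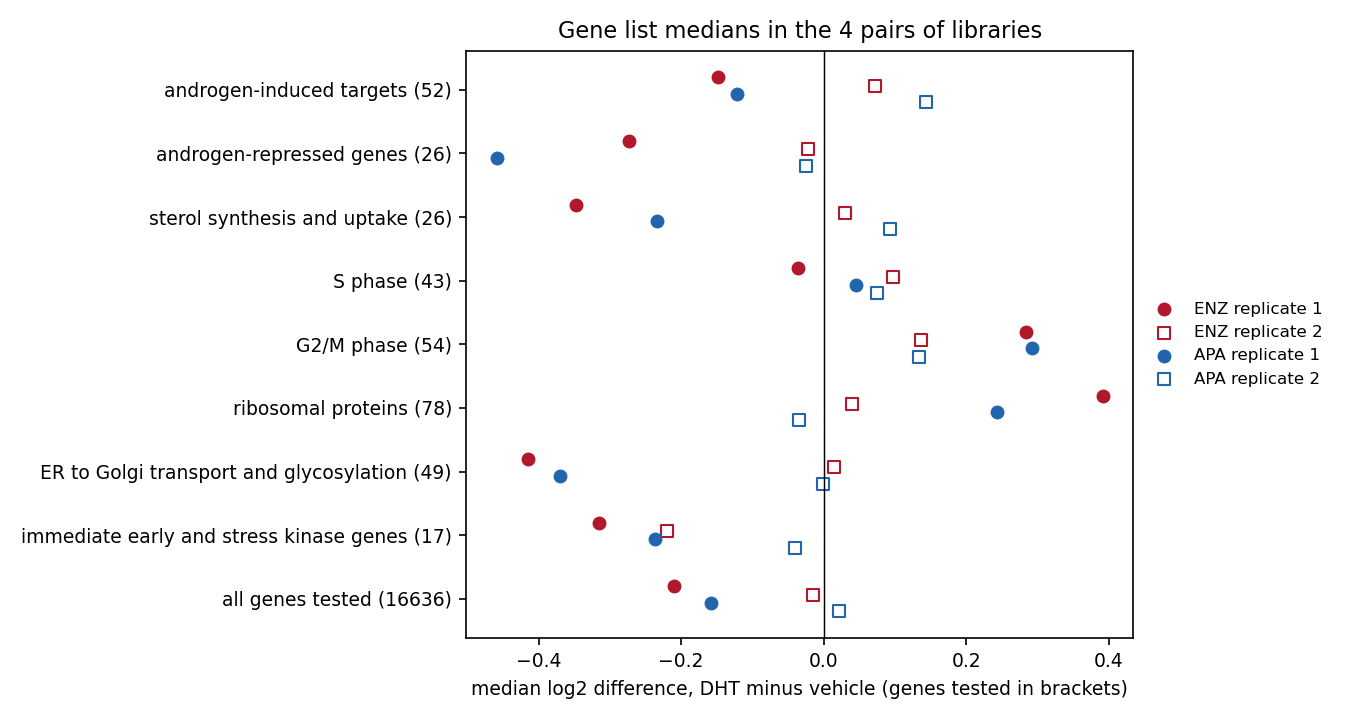
Median log2 difference between DHT and vehicle (x axis) of 8 gene lists and of all genes tested (y axis, with the number of genes) in the 4 pairs of libraries. G2/M phase lies above 0 in all 4 pairs (0.13 to 0.29), and androgen-induced targets lie below 0 in replicate 1 and above 0 in replicate 2 (-0.15 to 0.14).

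Enzalutamide and apalutamide were compared at the same dose and time, as 1 pair of compounds over all genes. With enzalutamide 0 genes were called for DHT against vehicle and 637 had an unadjusted p below 0.05. With apalutamide 1 gene was called (0.00601%), RNU5E-1, and 622 had an unadjusted p below 0.05. With all 16 libraries in the fit, apalutamide had 4 calls (0.024%), ARHGEF26, KLK3, RNU5E-1 and TRPM8, and enzalutamide 1, AC008752.1. The test of the difference between the DHT responses under these compounds called 0 of 16636 genes (limma, Benjamini-Hochberg adjustment), with 255 at an unadjusted p below 0.05. With all 16 libraries it called 1, RNU5E-1 (limma adjusted p 0.000367), which was listed at 0 outside APA.VEH, and some other settings called RNU5E-1 or RNU6ATAC, another small nuclear RNA. The intervals of single genes were wide. For KLK3 the response under APA exceeded that under ENZ by 1.43 on the log2 scale (95% interval -0.03 to 2.88), and for KLK2 by 1.32 (95% interval -0.45 to 3.08). For TRPM8 the difference was 0.50 (95% interval -0.30 to 1.31), for KCNN2 0.36 (95% interval -0.11 to 0.83) and for ARHGEF26 0.40 (95% interval 0.02 to 0.78, limma adjusted p 1.00). In the fit of 8 libraries the cyclobutane and pyridine of apalutamide thus went with no called difference, and the intervals do not show that the compounds act alike. With DHT, KLK3 stood at 296 (ENZ) and 340 TPM (APA) in replicate 1 and at 115 and 90.3 TPM in replicate 2. KLK2 was close between the drugs in replicate 1 only. It stood there at 34.2 (ENZ) and 34.6 TPM (APA), and at 15.1 and 9.53 TPM in replicate 2. In both genes both ENZ.VEH libraries were above both APA.VEH libraries.

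Against bicalutamide, the response under ENZ or APA differed in 0 called genes (limma, Benjamini-Hochberg adjustment), with 420 at an unadjusted p below 0.05. Under bicalutamide itself DHT called 0 genes, with 768 at an unadjusted p below 0.05. The levels were unequal all the same: KLK3 stood at 358 and 206 TPM in BIC.VEH and at 845 and 445 TPM in BIC.DHT, each above the ENZ and APA libraries of the same treatment. The log2 fold change of KLK3 was 1.17 under BIC, 0.88 below that under ENZ or APA (95% interval of the difference 0.01 to 1.76, limma adjusted p 0.98). For PLA2G2A the response under BIC was -0.54 and was more negative by 0.42 (95% interval 0.17 to 0.67, limma adjusted p 0.98). For ARHGEF26 it was 0.03 under BIC, with a difference of 0.59 (95% interval 0.34 to 0.83, limma adjusted p 0.88). For FKBP5 it was 0.25 under BIC, with a difference of -0.30 (95% interval -0.64 to 0.04, limma adjusted p 0.98).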

How the data were processed

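Bulk RNA-seq of LNCaP cells gave 16 libraries in 8 groups of 2. Per the study's methods and submitters' notes, the authors checked reads with FastQC 0.11.9, trimmed them with Trim Galore 0.6.5, aligned them to GRCh38 with STAR 2.7.2b and estimated levels with RSEM 1.3.3 (GENCODE 33). The deposited values are TPM per gene symbol and library, which scale every library to 1 total, so abundant transcripts lower all others. Of 60642 symbols, 26439 were listed at 0 throughout. TPM keeps no depth, so counting intervals and count tests were not possible, and precision was judged from the spread between libraries. RSEM divides reads that fit several genes, so paralogs and overlapping genes are uncertain.

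Genes with a TPM of at least 1 in 2 libraries were tested on log2(TPM + 1) with limma 3.58.1 (trend) in R 4.3.3, two-sided, with Benjamini-Hochberg adjustment. The response under ENZ or APA was fitted to 8 libraries with antagonist and replicate number as blocks, single antagonists and their difference with 4 group means, and contrasts with other arms with 8 group means and replicate number over 16 libraries. The main fits of the response under ENZ or APA, of each antagonist, and of the differences between responses were tested on simulated data. The simulated DHT libraries under ENZ or APA held no shift with transcript length. Other fits were not tested in this way. An exact permutation within 4 pairs cannot go below 0.125, so none was used. The label ARN was read as apalutamide, as in the study's methods. The members and lists were chosen with earlier results of these data known. Lists were written from general knowledge and described by counts and medians, with no list test. Genes named were the called ones, the 5 per direction with the lowest p (mean TPM of at least 5), 14 known targets or markers, and up to 4 per list, of which those that the text turns on are given. Some of these results are not reported here. Transcript lengths (longest transcript per symbol in GENCODE v44lift37) matched 84.0% of genes. Positions and promoters came from RefSeq (GRCh38.p14), where 68 of 70 named genes matched. Alternatives were another pseudocount, other filters, median-ratio scaling, no block, another set of libraries, no trend and each library left out. Fits of 1 replicate number, removal of the length trend (lowess per library) and the test between replicates were added after the data were seen.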

Additional observations from a re-analysis of the deposited data

Results flagged for a closer look

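In 140 sets of 4 libraries (the 4 vehicle or the 4 DHT libraries of a named gene), 5 held a library far from the other 3, measured as its gap to the nearest of them over the whole range on the log2 scale. Chance alone flags about 1 in 20 such sets. TRPM8 was lowest in APA.VEH replicate 2, at 0.76 TPM against 1.87 to 2.17 TPM (gap ratio 0.831), and without that library its log2 fold change under ENZ or APA was 1.21. UGT2B17 was lowest in ENZ.VEH replicate 1, at 175 TPM against 274 to 296 TPM (0.855). APA.DHT replicate 1 was the highest library in the other sets: CYP11A1, the first enzyme of steroid synthesis, at 0.85 TPM against 0.40 to 0.46 TPM (0.849), EBP at 55.9 TPM against 54.7 to 54.9 TPM (0.867), and RPS24, a ribosomal protein gene, at 3618 TPM against 3312 to 3337 TPM (0.915).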

How the results depend on the processing

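The 1 call under ENZ or APA became 0 with no filter on low values and in replicate 2 alone, 6 with all 16 libraries in the fit and 4653 in replicate 1 alone, and it ranged from 0 to 1 when 1 library was left out (RNA5SP392 without APA.DHT replicate 2, SNORA17B without ENZ.DHT replicate 2). For ENZ the count was 2 (RNA5SP392 and RNU6ATAC) with a pseudocount of 0.1 and 1 with all 16 libraries, and for APA 2 (again these) with that pseudocount, 0 without a filter, 0 with a filter of 5 TPM and 4 with all 16 libraries. With 1 library left out these ranged from 0 to 19 (ENZ, highest without ENZ.DHT replicate 2) and from 0 to 27 (APA, highest without ENZ.DHT replicate 1 or 2). APA against ENZ gave 1 call with a pseudocount of 0.1, with median-ratio scaling and with all 16 libraries, 2 without the trend and 2 with the length trend removed, and 0 to 36 with 1 library left out (36 without ENZ.DHT replicate 2). These calls were RNU6ATAC and RNU5E-1, small nuclear RNAs, except for those with a library left out. Against no antagonist, 1631 genes were called with only the compared arms in the fit and 1152 to 3137 with 1 library left out, the lowest without VEH replicate 2 (1442 without VEH replicate 1, 1503 and 1705 without DHT replicate 1 and 2). Against BIC, 3 were called without a filter (EZR-AS1, RNU5E-1 and RPL29P33), 1 (RNU5E-1) without the trend, 1 with the length trend removed, and 0 to 1 with 1 library left out.

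Without the replicate block, 514 genes were called against no antagonist (229 more positive, 285 more negative) instead of 2599, 1 gene for APA against ENZ, and 1 for ENZ or APA as with the block. Deviations of same-numbered libraries correlated across genes at 0.34 to 0.64 between the 4 ENZ and APA groups. By their labels, same-numbered libraries share only a number, with no label of a shared culture or day. What else they share was not tested.

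Median-ratio scaling moved the all-gene median of the log2 fold change from -0.09 to 0.01. It turned the values of FKBP5 (0.060), UGT2B17 (0.0029) and MCM2 (0.054) positive. Removal of the length trend did so for FKBP5 (0.17) and MCM2 (0.062), and moved the median of the androgen-induced list to 0.14. In replicate 2 alone FKBP5 (0.10), UGT2B17 (0.081), MCM2 (0.12) and HMGCS1 (0.090) were positive and PGC negative (-0.018). With 1 library left out, FKBP5 ranged from -0.11 to 0.011, UGT2B17 from -0.23 to 0.047 and MCM2 from -0.14 to 0.017. The cause of these changes was not tested. The other genes whose log2 fold changes under ENZ or APA are given kept their direction under every alternative in which they were tested. Genes outside the naming rule were named after their values were seen.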
